A study of Mus musculus with 20 samples.

Results

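The glycolytic enzyme genes Hk2, Gpi1, Pfkl, Aldoa, Tpi1, Gapdh, Pgk1, Pgam1, Pkm and Ldha were taken as a fixed list of pathway members and followed in single B cells and plasma cells. All 10 listed symbols were found among the 16047 genes of the count matrix. The matrix holds 1367 eYFP-positive cells that were index-sorted into plates from lymph nodes of C57BL/6 mice that had received NP-KLH mixed into Sigma Adjuvant System, at day 15 of the response and 4 days after tamoxifen gavage. Libraries were made with FB5P-seq, a plate-based method that counts the 5′ ends of transcripts, after 22 cycles of preamplification. All cells share the eYFP tag and the tamoxifen treatment; the labels name neither the allele that drives eYFP nor the number of mice. The cells stand under 2 sample identifiers, C57BL/6M with 741 cells on 10 plates and C57BL/6F with 626 cells on 10 plates, so animal, sex and plate set cannot be told apart. The authors assigned each cell a sort gate (393 cells in the plasma gate, 282 in the pre-plasma gate, 325 in the dark zone gate and 367 in the light zone gate), a cell cycle phase and one of 7 annotated states. Dark zone and light zone gates are pooled below as the germinal centre gates. Plates are the replicates of gates and phases, so p-values measure the spread between plates, which may share animals.

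Glycolysis converts glucose to pyruvate in the cytosol: hexokinase traps glucose, a preparatory phase uses ATP and splits the sugar, a payoff phase recovers ATP and NADH, and lactate dehydrogenase regenerates NAD+ by reducing pyruvate. B cells in the germinal centre divide fast and draw on both glycolysis and mitochondrial respiration, and plasma cells use imported glucose in large part to glycosylate antibodies. Many genes of the pathway are textbook targets of the transcription factors Hif1a and Myc.

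The promoters of several members hold the pentamer ACGTG, a form of the core of the element that hypoxia-inducible factors bind, which on both strands also lies inside the E-box CACGTG of Myc. In the RefSeq windows of GRCm38.p6 that run from upstream of a gene's start to just past it, 8 of the 14 windows of the members held ACGTG on either strand, against 19.6% of 32851 windows of all genes. The E-box CACGTG was in 1 of the 14 windows, at Ldha, against 7.15% of all windows, and the Sp1 motif GGGCGG in 10 of the 14, against 35.7%. The 80 bases below show these letters in 2 genes that fell in the plasma gate (Ldha and Aldoa) and 2 that did not pass the test there (Pgk1 and Pgam1), with each ACGTG on either strand in capitals. The Aldoa stretch lies in 2 of its 3 RefSeq windows, which overlap, so its 1 site counts in 2 of the 8 windows. A match describes the letters only.
Ldha, chr7:46845639-46845718, plus strand: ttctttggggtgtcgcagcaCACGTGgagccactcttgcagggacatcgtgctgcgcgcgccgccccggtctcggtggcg
Aldoa, chr7:126799321-126799400, minus strand: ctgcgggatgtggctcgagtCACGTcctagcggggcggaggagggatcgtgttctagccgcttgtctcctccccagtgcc
Pgk1, chrX:106186930-106187009, plus strand: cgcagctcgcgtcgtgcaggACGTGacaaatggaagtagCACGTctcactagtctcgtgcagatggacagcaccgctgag
Pgam1, chr19:41911737-41911816, plus strand: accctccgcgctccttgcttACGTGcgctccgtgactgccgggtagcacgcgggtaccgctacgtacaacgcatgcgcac

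Plates held 3208858 to 11908095 counts, apart from plate6 of C57BL/6F, which held 5979 counts in 10 cells and entered no gate comparison with a plate block. The median cell had 60536 counts over 1425 genes. The 9 germinal centre B cell markers (Bcl6 and others) summed to a median of 482 CPM (a gene as a TMM-scaled share of all counts of its pool) per plate in the plasma gate, 1803 CPM in the pre-plasma gate and 6259 CPM in the germinal centre gates, with Bcl6 at 0 in the plasma gate. The 8 plasma cell markers (Sdc1, Xbp1 and others) summed to 27944, 9463 and 4296 CPM in the same order, with Tnfrsf17 at 0 in the germinal centre gates. The 6 T cell markers, 5 of them in the matrix, summed to at most 49.0, 7.26 and 9.30 CPM on any plate. The 6 myeloid markers had median sums of 121, 65.7 and 29.7 CPM (ranges 0 to 275, 2.18 to 194 and 0 to 69.8 CPM), with Csf1r and Adgre1 at 0 in the plasma gate and Csf1r and Fcgr3 at 0 in the germinal centre gates; their part in the results was not tested. The red cell and stromal markers, 5 of 6 in the matrix, had median sums of 51.4, 22.9 and 69.0 CPM.

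The first comparison asks how far sorted plasma cells differ from the germinal centre cells sorted on the same plates. The plasma gate had lower levels of 5 of the 9 members tested, namely Gpi1, Aldoa, Tpi1, Gapdh and Ldha, and no member rose. Levels were summed per plate and gate and scaled by TMM, and differences are log2 fold changes ± SE from edgeR's quasi-likelihood test with plate as a block over 19 plates, with p-values adjusted over all genes tested. Of all 6865 genes tested, 34.9% passed the threshold of 0.05 and 21.3% passed it as lower, so lower calls were common in this comparison. The median log2 fold change of the 9 members was -0.72, beside -0.50 for all genes tested. The counts of the 10 members together had a median of 2509 CPM per plate in the plasma gate (793 to 3355), against 3201 CPM in the germinal centre gates (1994 to 4674). The sum was lower in the plasma gate on 18 of 19 plates, all but plate13, although the ranges overlapped. In such sums over the single cells of a pool, fewer expressing cells and less RNA per expressing cell cannot be told apart. Shares of cells with a count at equal depth are given further below.

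**Figure D1:**
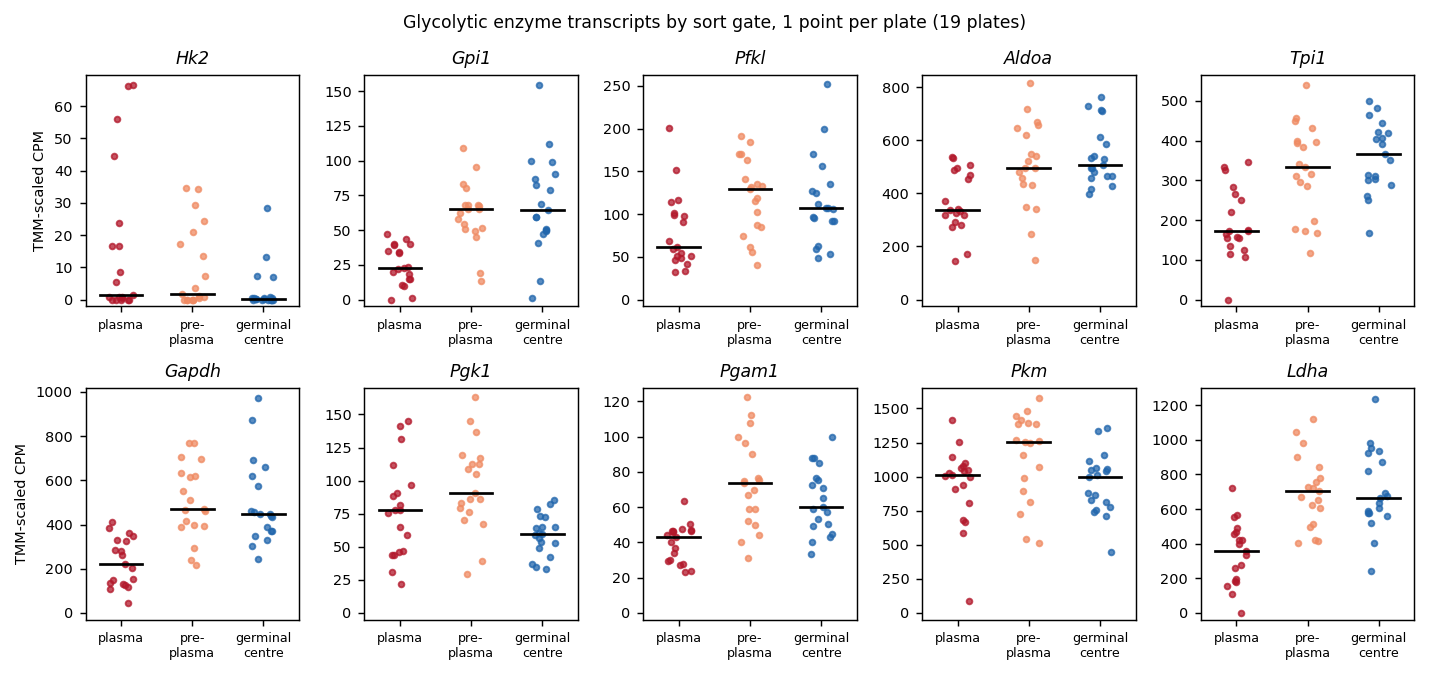
Each panel plots 1 glycolytic gene, with TMM-scaled CPM on the y axis and the plasma, pre-plasma and germinal centre gates on the x axis; a point is the summed cells of 1 plate and the bar is the median of 19 plates. Gapdh medians stand at 222, 470 and 448 CPM and Ldha medians at 356, 702 and 666 CPM from left to right, whereas Pkm medians stand at 1009, 1257 and 995 CPM.

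Hexokinase 2 (Hk2, chr6:82725025-82774454, minus strand; all gene positions are GENCODE on GRCm38) phosphorylates glucose at the head of the pathway. It was sparse, with 876 counts in 65 of the 1367 cells, and did not pass the filter on low counts in the gate comparisons. Its level per plate had a median of 1.37 CPM in the plasma gate (0 to 66.5) and 0.345 CPM in the germinal centre gates (0 to 28.5), with 5 plasma gate pools and 7 germinal centre pools at 0. Hk2 was higher in the plasma gate on 13 plates and lower on 4 against the germinal centre gates, and higher on 14 and lower on 4 against the pre-plasma gate (median 1.82 CPM, 0 to 34.6), the other way from the sum of the members. The ranges overlapped. In cells thinned to 10000 counts Hk2 was seen in 3.2% of 375 cells of the plasma gate (95% exact Clopper-Pearson interval 1.66 to 5.52; 5.85% unthinned), 3.5% of 257 of the pre-plasma gate (1.61 to 6.54; 9.22% unthinned) and 0.313% of 639 of the germinal centre gates (0.0379 to 1.13; 2.31% unthinned).

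Glucose-6-phosphate isomerase (Gpi1, chr7:34201330-34230336, minus strand) makes fructose 6-phosphate. It had a median of 23.0 CPM in the plasma gate (0 to 46.9) and 64.5 CPM in the germinal centre gates (1.21 to 154). The ranges overlapped, and 17 of 19 plates were lower in the plasma gate. The fold change was -1.50 ± 0.56 (edgeR adjusted p = 0.0380), 1.01 below the median of all genes, and was no longer past the threshold with no filter on low counts (adjusted p = 0.0746).

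The liver-type subunit of phosphofructokinase (Pfkl, chr10:77986947-78010083, minus strand), the enzyme of the first committed step, had a median of 62.0 CPM in the plasma gate (32.6 to 201) and 107 CPM in the germinal centre gates (48.9 to 252). The groups overlapped over most of their range, with 14 of 19 plates lower. At -0.66 ± 0.31 the difference did not pass the adjusted threshold (edgeR adjusted p = 0.102; approximate 95% interval -1.27 to -0.05).

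Aldolase A (Aldoa, chr7:126795234-126800751, minus strand) splits fructose 1,6-bisphosphate. Its median was 338 CPM in the plasma gate (145 to 537) and 505 CPM in the germinal centre gates (398 to 762). It was lower in the plasma gate on 18 of 19 plates. Aldoa fell by 0.65 ± 0.15 on the log2 scale (edgeR adjusted p = 0.00111), which is only 0.15 more than the median of all genes. The annotation holds 2 gene models of this name, and how their reads were shared is not given in the sources used here.

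Triosephosphate isomerase (Tpi1, chr6:124810586-124814296, minus strand) interconverts the triose phosphates. It had a median of 172 CPM in the plasma gate (0 to 346) and 366 CPM in the germinal centre gates (169 to 500). The plasma gate was lower on 17 of 19 plates, and the fold change was -1.10 ± 0.33 (edgeR adjusted p = 0.0108).

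Glyceraldehyde-3-phosphate dehydrogenase (Gapdh, chr6:125161715-125166467, minus strand) opens the payoff phase and yields NADH. It had a median of 222 CPM in the plasma gate (43.8 to 413) and 448 CPM in the germinal centre gates (242 to 972). It was lower in the plasma gate on 18 of 19 plates. The fold change was -1.23 ± 0.22 (edgeR adjusted p = 6.31e-05), 0.74 below the median of all genes. Gapdh has 73 near-identical copies in the annotation (at least 95% identity over at least 300 bases), 70 of them pseudogenes, so its counts are uncertain where reads could be split. The 2 copies present in the matrix, Gm3839 and Gm7293, held 9 and 4 counts in all.

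Phosphoglycerate kinase 1 (Pgk1, chrX:106187100-106203699, plus strand) makes the first ATP of the payoff phase. It had a median of 77.9 CPM in the plasma gate (21.9 to 145) and 59.4 CPM in the germinal centre gates (33.2 to 85.3). The plasma gate was higher on 12 of 19 plates. The fold change of 0.24 ± 0.32 did not pass the threshold (edgeR adjusted p = 0.596; interval -0.38 to 0.86). Pgk1 has 4 near-identical copies in the annotation, all 4 pseudogenes. The 1 copy present in the matrix, Pgk1-rs7, held 5 counts in all.

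Phosphoglycerate mutase 1 (Pgam1, chr19:41911923-41918660, plus strand) moves the phosphate of 3-phosphoglycerate. It had a median of 43.2 CPM in the plasma gate (23.0 to 63.4) and 60.1 CPM in the germinal centre gates (33.3 to 99.9), with 17 of 19 plates lower. At -0.72 ± 0.32 it missed the adjusted threshold (edgeR adjusted p = 0.0819; interval -1.35 to -0.10).

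Pyruvate kinase (Pkm, chr9:59656368-59679375, plus strand) makes pyruvate and ATP. Its median was 1009 CPM in the plasma gate (86.1 to 1418) and 995 CPM in the germinal centre gates (445 to 1354). The plasma gate was higher on 11 plates and lower on 8. The fold change was -0.14 ± 0.14 (edgeR adjusted p = 0.473; interval -0.41 to 0.13), 0.36 above the median of all genes.

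Lactate dehydrogenase A (Ldha, chr7:46841475-46855627, plus strand) reduces pyruvate to lactate. It had a median of 356 CPM in the plasma gate (1.37 to 722) and 666 CPM in the germinal centre gates (240 to 1239). The ranges overlapped, but the plasma gate was lower on 18 of 19 plates. Ldha fell by 1.31 ± 0.29 on the log2 scale (edgeR adjusted p = 0.000828), 0.81 more than the median of all genes. Near-identical pseudogene copies number 2 for Ldha and 1 each for Tpi1, Pgam1 and Pkm, none of them in the matrix.

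The plasma gate was then set against the pre-plasma gate, as the authors named it; both comparisons use the same plasma gate pools. In the plasma gate 6 of 9 members tested were lower and none was higher, in a comparison where 18.1% of 6564 genes passed and 9.69% passed as lower. The members' median log2 fold change was -0.93, beside -0.27 for all genes tested. The members together had a median of 2509 CPM in the plasma gate and 3898 CPM in the pre-plasma gate (1892 to 4822), with the plasma gate lower on 18 of 19 plates. Gapdh, at a median of 470 CPM in the pre-plasma gate (218 to 770), was lower in the plasma gate on 19 of 19 plates, by -1.29 ± 0.18 (edgeR adjusted p = 7.65e-06). Ldha, at a median of 702 CPM in the pre-plasma gate (407 to 1120), was also lower on 19 of 19 plates, by -1.31 ± 0.27 (edgeR adjusted p = 0.00105). Pkm had a median of 1257 CPM in the pre-plasma gate (514 to 1577) and was lower in the plasma gate on 18 of 19 plates, by -0.42 ± 0.13 (edgeR adjusted p = 0.0222). Gpi1 (-1.58 ± 0.55), Aldoa (-0.51 ± 0.14) and Tpi1 (-0.93 ± 0.31) fell as well, at edgeR adjusted p = 0.0471, 0.00900 and 0.0343; with no filter on low counts Gpi1 (0.197) and Aldoa (0.0755) no longer passed. Pfkl (-0.72 ± 0.30), Pgk1 (-0.43 ± 0.27) and Pgam1 (-0.93 ± 0.34) did not pass, at edgeR adjusted p = 0.0975, 0.322 and 0.0605.

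The pre-plasma gate itself differed from the germinal centre gates in 1 of 9 members, Pkm, which had a median of 1257 CPM in the pre-plasma gate and 995 CPM in the germinal centre gates. Pkm rose by 0.24 ± 0.08 on the log2 scale (edgeR adjusted p = 0.0333; higher on 15 of 19 plates), where 15.2% of 7150 genes passed and 7.09% passed as higher. This call was lost without plate2 (0 members), with no filter on low counts (adjusted p = 0.111) and in thinned cells (adjusted p = 0.324). Pgk1, with medians of 90.4 CPM (29.1 to 163) and 59.4 CPM, was higher on 17 of 19 plates but at 0.64 ± 0.25 did not pass (edgeR adjusted p = 0.0859; interval 0.15 to 1.12). Gapdh stood at 0.01 ± 0.11 (interval -0.20 to 0.22), and the approximate 95% interval of Ldha ran from -0.22 to 0.21. The median of all genes was -0.19 in this comparison and that of the members 0.01.

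**Figure D2:**
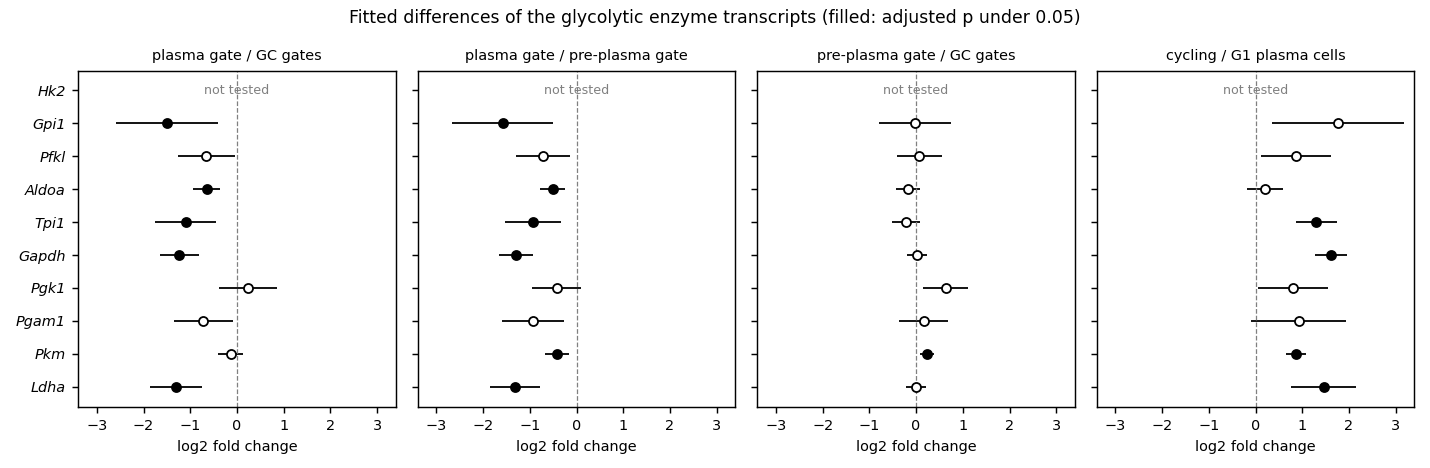
Points are edgeR log2 fold changes of the glycolytic genes in 4 comparisons, each named with the numerator first, and bars are approximate 95% intervals; filled points have an adjusted p under 0.05. Gapdh, Tpi1 and Ldha lie left of 0 in both plasma gate comparisons and right of 0 in cycling plasma cells, while intervals of the pre-plasma gate against the germinal centre gates mostly span 0.

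Cell cycle phase, as the authors assigned it, moved with the gates. G1 cells made up 87.8% of the plasma gate, 48.9% of the pre-plasma gate and 52.3% of the germinal centre gates, and the 6 cycling markers summed to a median of 996, 1989 and 1972 CPM in the same order. With G1 cells alone on both sides, an alternative chosen after seeing the data, 4 members were lower in the plasma gate than in the germinal centre gates, where 13.9% of 5206 genes passed as lower and the median of all genes was -0.16. Gapdh (-1.71), Ldha (-1.72), Tpi1 (-1.22) and Aldoa (-0.87) held at edgeR adjusted p between 1.57e-06 and 0.0437, whereas Gpi1, at -1.75, did not pass (adjusted p = 0.165). Against the pre-plasma gate, G1 cells alone left Gapdh as the 1 member called, at -1.47 (edgeR adjusted p = 0.000969), with Ldha at -0.76 (adjusted p = 0.359); 1.96% of 4226 genes passed as lower there, and the median of all genes was 0.42. The Pkm difference between pre-plasma and germinal centre gates was -0.01 in G1 cells (edgeR adjusted p = 0.989). In S and G2/M cells alone only 2 plates held enough plasma gate cells for a pool; Gapdh stood at 0.10 and Ldha at -0.09 there and no member passed, in a fit of 4 pools and 51 cells where 2.5% of genes passed (0 members at an unadjusted p under 0.05).

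The pre-plasma gate is a mixture: 128 of its 282 cells were annotated as plasma cells, and among annotated plasma cells alone the plasma gate was lower than the pre-plasma gate for Gapdh only, at -1.04 (edgeR adjusted p = 0.00201), with Ldha at -0.88 (adjusted p = 0.219), where 1.28% of 5713 genes passed as lower and the median of all genes was 0.24. In sums over each sample identifier, annotated plasma cells in G1 from the plasma gate held 1936 CPM of the 10 members in C57BL/6M and 1830 in C57BL/6F. Those in G1 from the pre-plasma gate held 2533 and 2708 CPM. Cycling annotated plasma cells held 3068 and 3505 CPM in the plasma gate and 3476 and 4161 CPM in the pre-plasma gate, and cells of the germinal centre gates held 3405 and 3755 CPM when cycling and 2717 and 3224 CPM in G1. The G1 plasma cells of the plasma gate were thus the lowest of these 6 classes under both identifiers. The shares of immunoglobulin transcripts and the depth moved with these classes too: Ig genes took 9.27% of counts in G1 plasma cells of the plasma gate and 3.68% in cycling ones, at medians of 59514 and 159640 counts per cell. Without immunoglobulin genes the plasma gate had 5 members lower against the germinal centre gates and 5 against the pre-plasma gate, and in thinned cells likewise 5 and 5. No share of all genes passing is given for the fits without immunoglobulin genes, so those counts are not a result about the members. In thinned cells 50.1% of 3303 genes passed against the germinal centre gates, 28.6% as lower. Against the pre-plasma gate 34.5% of 2649 genes passed, 18.5% as lower.

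Phase, assigned by the authors in a way not given in the sources used here, was next compared inside the annotated plasma cells, S and G2/M cells together against G1 cells on 13 plates. Gate moved with phase: over all plates 57 cycling plasma cells came from the pre-plasma gate and 45 from the plasma gate. Among G1 plasma cells the numbers were 71 and 306. Gapdh in G1 plasma cells had 229 and 447 CPM (C57BL/6M and C57BL/6F) in the pre-plasma gate. In the plasma gate it had 147 and 150 CPM. The comparison did not hold gate equal, apart from a fit within the plasma gate given below. Cycling plasma cells had higher levels of 4 of the 9 members tested, Tpi1, Gapdh, Pkm and Ldha, and lower levels of none; 16.0% of 5696 genes passed and 7.78% passed as higher. The members' median log2 fold change was 0.92, beside -0.04 for all genes tested. The 10 members together had a median of 3864 CPM in cycling plasma cells (1798 to 5432; 13 plates) and 2035 CPM in G1 plasma cells (867 to 2926; 19 plates), and were higher on 13 of 13 plates with both.

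Gapdh had a median of 465 CPM in cycling plasma cells (160 to 767) and 177 CPM in G1 plasma cells (38.1 to 408). It was higher on 13 of 13 plates, by 1.62 ± 0.18 (edgeR adjusted p = 1.92e-06). Ldha had a median of 776 CPM in cycling plasma cells (17.0 to 1280) and 239 CPM in G1 plasma cells (2.54 to 384), and its rise of 1.46 ± 0.35 on the log2 scale (edgeR adjusted p = 0.00675) was seen on 12 of 13 plates. Pkm had a median of 1568 CPM in cycling plasma cells (920 to 1910) and 795 CPM in G1 plasma cells (184 to 1437). Its rise of 0.87 ± 0.11 (edgeR adjusted p = 1.00e-05) was seen on 13 of 13 plates. Tpi1 had a median of 314 CPM in cycling plasma cells (158 to 541) and 144 CPM in G1 plasma cells (0 to 257), a rise of 1.30 ± 0.22 (edgeR adjusted p = 0.000342; 12 of 13 plates). Aldoa stood at 418 CPM in cycling and 412 CPM in G1 plasma cells and did not pass at 0.19 ± 0.20 (edgeR adjusted p = 0.601; interval -0.19 to 0.58). Gpi1 (1.76 ± 0.72), Pfkl (0.86 ± 0.38), Pgk1 (0.80 ± 0.38) and Pgam1 (0.92 ± 0.52) did not pass edgeR's test, at adjusted p between 0.116 and 0.288.

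Cycling plasma cells were deeper, with medians of 176716 counts in S and 154633 in G2/M against 62707 in G1, and the spike-in share was 1.42% and 1.51% against 3.64%. Identity markers moved as well: 6 of the 8 plasma cell markers were lower in cycling plasma cells, among them Jchain (-1.93 ± 0.09), Fkbp11 (-1.78 ± 0.17), Sdc1 (-1.72 ± 0.19), Mzb1 (-1.37 ± 0.08) and Xbp1 (-1.33 ± 0.07), at edgeR adjusted p between 1.51e-10 and 2.51e-06. The 4 germinal centre B cell markers tested lay between -0.96 and 0.25, none past edgeR's threshold and 0 at an unadjusted p under 0.05, and the part of the plasma cell markers in the result was not tested. With every cell thinned to at most 10000 counts the comparison called 4 members, and without immunoglobulin genes 4. For the second setting no share of all genes passing is given. In the thinned cells 36.0% of 1808 genes passed and 16.9% passed as higher. It could be made within the plasma gate on 2 plates only, where Gapdh stood at 2.02, Ldha at 1.34 and Pkm at 0.93, none past the threshold (edgeR adjusted p = 0.291, 0.464 and 0.519; 4 pools, 41 cells).

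**Figure D3:**
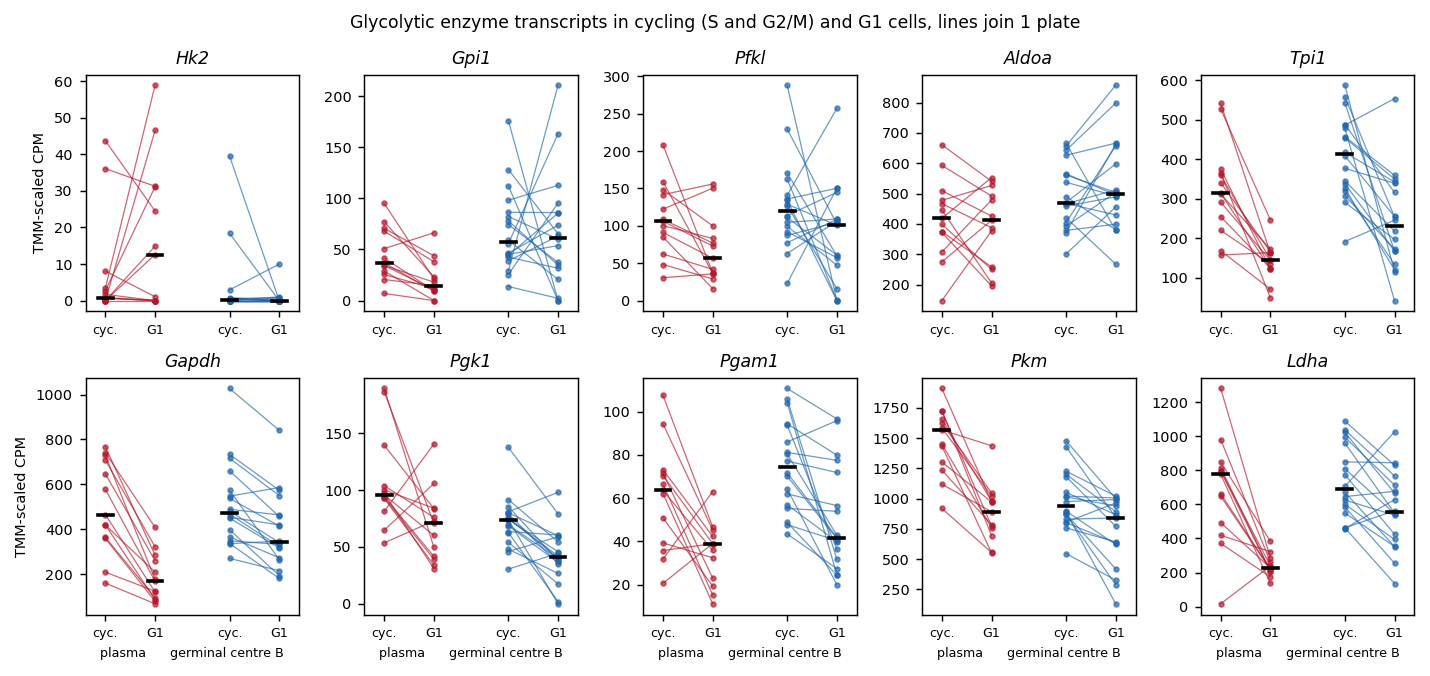
Each panel plots 1 gene in TMM-scaled CPM for cycling (S and G2/M) and G1 cells of annotated plasma cells (red, 13 plates) and annotated germinal centre B cells (blue, 18 plates); lines join the 2 sums of 1 plate and bars are medians over the plates drawn. The red lines of Gapdh and Pkm go down to G1 on 13 of 13 plates, while the blue lines of Aldoa go both ways.

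In annotated germinal centre B cells each phase was set against G1 on its own. In S cells 1 of 9 members passed against G1 on 18 plates: Tpi1, with a median of 437 CPM in S (132 to 784) and 252 CPM in G1 (45.1 to 566), rose by 0.88 ± 0.22 (edgeR adjusted p = 0.0123; 17 of 18 plates), where 5.79% of 5335 genes passed and 3.41% passed as higher. In the same fit Ldha (0.45 ± 0.14, edgeR adjusted p = 0.0521) and Pkm (0.51 ± 0.17, adjusted p = 0.0743) did not pass. With dark zone cells alone no member passed edgeR's test (1 at an unadjusted p under 0.05). In G2/M cells none of the 9 members passed edgeR's adjusted threshold against G1, where 6.52% of 5242 genes passed it. At an unadjusted p under 0.05 edgeR had 3 members, in both directions. Aldoa was lower in G2/M (-0.53 ± 0.17), and Pkm (0.32 ± 0.13) and Tpi1 (0.57 ± 0.26) were higher. DESeq2 called 2 members. No share of all genes is given at the unadjusted p or for DESeq2. The sum of the members was higher in S than in G1 on 17 of 18 plates, and higher in G2/M than in G1 on 10 of 18.

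Whether the phase difference itself was larger in plasma cells than in germinal centre B cells was tested as an interaction over 69 pools. Of the 10 members, Gapdh alone passed, at 1.07 ± 0.25 on the log2 scale (edgeR adjusted p = 0.00473), where 2.65% of 8458 genes passed and 0.627% passed as higher. With no filter on low counts it stood at 1.10, with an adjusted p of 0.0740. Ldha stood at 0.88 ± 0.37 (edgeR adjusted p = 0.226; interval 0.16 to 1.59) and Pkm at 0.27 ± 0.20 (adjusted p = 0.637; interval -0.13 to 0.67). Gapdh had a median of 465 CPM in cycling and 177 CPM in G1 plasma cells, against 474 CPM in cycling and 347 CPM in G1 germinal centre B cells. Gate moved with phase among the plasma cells, and its part in the interaction was not tested.

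Annotated plasma cells were also compared with annotated germinal centre B cells over 19 plates; the annotation may rest on the same transcripts, so this describes the states. Gpi1 (-0.98 ± 0.35), Aldoa (-0.33 ± 0.12), Tpi1 (-0.83 ± 0.30), Gapdh (-0.63 ± 0.15) and Ldha (-0.67 ± 0.11) were lower in plasma cells, 5 of 9 members where 30.9% of 7649 genes passed and 15.8% passed as lower (edgeR adjusted p between 2.74e-05 and 0.0385). These 5 are the genes called between the plasma and germinal centre gates, in a comparison that shares most of its cells. In G1 cells alone 4 of them passed, where 11.9% of 5538 genes passed as lower, with Gapdh at -1.31 and Ldha at -1.42.

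Across the 7 annotated states, sums could be formed only per sample identifier. The 10 members together were highest in the light-to-dark zone state (4424 CPM in C57BL/6M and 4951 in C57BL/6F; 24 cells each) and in activated pre-plasma cells (4683 and 4609 CPM; 19 and 10 cells), whose order changed between the identifiers. Next came plasma (3000 and 3397 CPM), light zone (3188 and 3345 CPM) and dark zone cells (2890 and 3463 CPM), whose ranges overlapped. Memory-like pre-plasma cells (1881 and 2248 CPM; 34 and 29 cells) and pre-memory cells (1585 and 2444 CPM; 5 and 12 cells) were lowest and overlapped each other. Gpi1 went against the sum in memory-like pre-plasma cells, at 129 and 122 CPM (102 and 60 counts), the highest of the 7 states under both identifiers. Plasma cells had 48.7 and 38.2 CPM of Gpi1 and dark zone cells 88.6 and 66.6 CPM. These high sums rest on few cells. Gpi1 was seen in 14.3% of memory-like pre-plasma cells unthinned, the lowest share of the 7 states, against 26.0% of plasma and 35.0% of dark zone cells. In thinned cells the share was lowest there too, at 4 of 41 cells (9.76%), close to the 10.7% of plasma cells. Ldha had 1042 and 1049 CPM in activated pre-plasma cells and 1007 and 1185 CPM in the light-to-dark zone, against 663 and 771 CPM in the light zone. Hk2 had 21.5 and 31.2 CPM in activated pre-plasma cells and 0.425 and 0 CPM in the light zone. It had 19.3 and 7.58 CPM in plasma cells and 0.147 and 15.6 CPM in the light-to-dark zone, so high values were not particular to the activated state.

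With 2 sums a state, none of the 10 members passed edgeR's test of activated pre-plasma against light zone cells (0.737% of 10995 genes passed; 1 member at an unadjusted p under 0.05, and 1 called by DESeq2). None passed between light-to-dark zone and light zone (0.173% of genes passed, 0 members at an unadjusted p under 0.05 by edgeR and 0 called by DESeq2), between activated pre-plasma and light-to-dark zone (0.255%, 0 and 0), or between memory-like pre-plasma and plasma (0.0728%, 1 and 1). These shares are of genes past edgeR's adjusted threshold, and none is given at the unadjusted p or for DESeq2. Ldha differed by 0.61 ± 0.36 between light-to-dark zone and light zone (interval -0.09 to 1.31), and Gapdh by -0.85 ± 0.44 between memory-like pre-plasma and plasma (interval -1.70 to 0.01). Phase and depth moved with these states: G1 cells made up 10.3% of activated pre-plasma, 18.8% of light-to-dark zone and 85.7% of memory-like pre-plasma cells, at medians of 229914, 161602 and 16638 counts per cell. Their part in the differences was not tested.

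**Figure D4:**
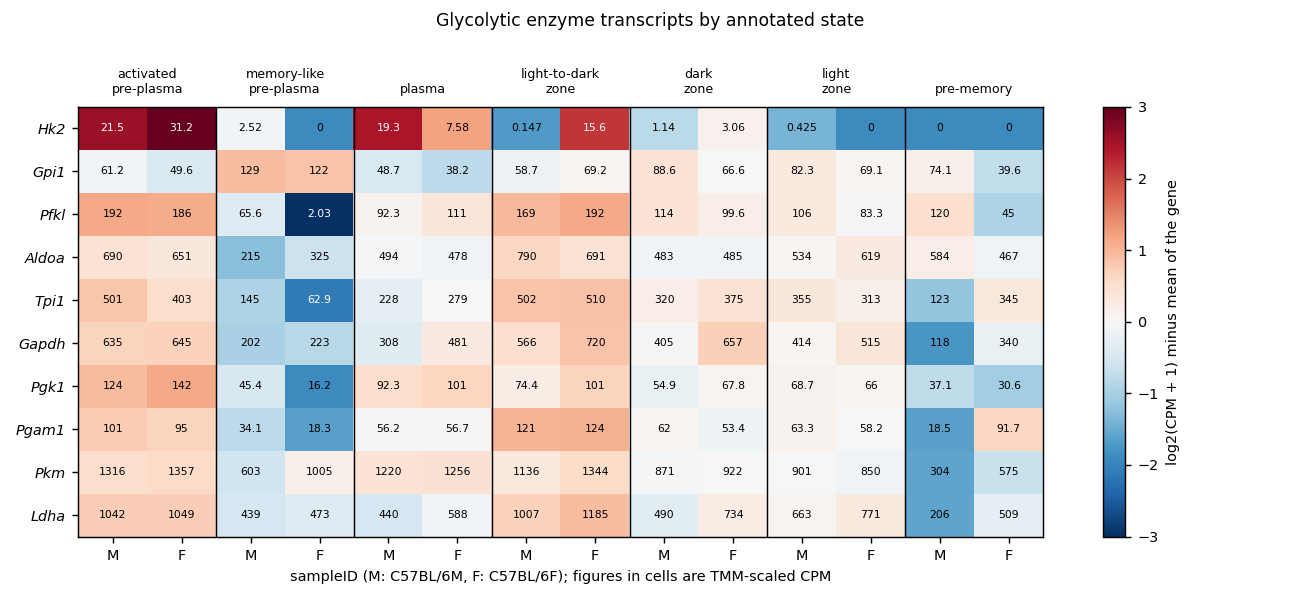
The heat map shows the glycolytic genes (rows) in the summed cells of each annotated state and sample identifier (columns); colour is log2(CPM + 1) minus the gene's mean over the 14 columns and the figures in the cells are TMM-scaled CPM. Ldha stands at 1042 and 1049 CPM in activated pre-plasma cells and at 439 and 473 CPM in memory-like pre-plasma cells.

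Shares of cells with a count were read after thinning each cell to 10000 counts, with shallower cells left out. Gapdh was seen in 33.6% of 375 thinned cells of the plasma gate (95% exact Clopper-Pearson interval 28.8 to 38.6; 41.7% unthinned), in 70.4% of 257 of the pre-plasma gate (64.4 to 75.9; 72.3% unthinned) and in 67.9% of 639 of the germinal centre gates (64.1 to 71.5; 68.8% unthinned). Ldha was seen in 28.3%, 61.1% and 56.3% of the same cells and Pkm in 60.3%, 75.5% and 69.0% (unthinned 32.6%, 62.1% and 59.0% for Ldha, and 64.1%, 77.7% and 71.0% for Pkm). Left out as too shallow were 18, 25 and 53 cells. The median thinned cell held counts of 2 of the 10 members in the plasma gate and of 4 in each of the other two classes. By state the median was 6 in activated pre-plasma and in light-to-dark zone cells, 3 in plasma and light zone cells, and 1 in memory-like pre-plasma cells, of which 22 of 63 were too shallow to be thinned. These intervals cover counting error only.

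Between the dark zone and light zone gates none of the 9 members tested passed edgeR's test, with 0 at an unadjusted p under 0.05 and 0 by DESeq2, where 0.305% of 5904 genes passed. Pkm stood at 0.02 ± 0.11 (interval -0.20 to 0.23), Aldoa at 0.00 ± 0.14 (interval -0.27 to 0.27) and Ldha at -0.11 ± 0.18 (interval -0.46 to 0.23). Between annotated dark zone and light zone cells none passed either (1 at an unadjusted p under 0.05 by edgeR, 0 by DESeq2; 1.41% of genes passed), with Gapdh at 0.36 ± 0.16 (edgeR adjusted p = 0.393). Between C57BL/6M and C57BL/6F no member passed edgeR's test in the plasma, pre-plasma or germinal centre gates, with 0, 0 and 1 at an unadjusted p under 0.05 and 0 by DESeq2 in each, where 0.665%, 0.744% and 0.230% of genes passed. The 1 was Gapdh in the germinal centre gates, at -0.55 ± 0.20 (edgeR adjusted p = 0.565). All shares of genes in this paragraph are at edgeR's adjusted threshold.

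The neighbouring parts of the pathway were read in the comparison of the plasma gate with the germinal centre gates. There 34.9% of 6865 genes passed and 21.3% passed as lower. Of 20 other glycolytic enzymes and isoenzymes 5 were tested; enolase 1 (Eno1), the step between Pgam1 and Pkm, fell by 0.76 ± 0.23 (edgeR adjusted p = 0.0116), with a median of 201 CPM in the plasma gate and 306 CPM in the germinal centre gates. Bisphosphoglycerate mutase (Bpgm) rose by 0.94 ± 0.35 (edgeR adjusted p = 0.0378), with medians of 127 and 65.9 CPM. Of 10 glucose and lactate carriers 4 were tested and 1 rose, basigin (Bsg), a chaperone of lactate transporters, with a median of 1579 CPM in the plasma gate and 352 CPM in the germinal centre gates (2.10 ± 0.15, edgeR adjusted p = 2.97e-11). Outside the rule for named genes, and chosen after its values were seen, the muscle-type phosphoglycerate mutase Pgam2 had 2932 counts in 40 of 393 cells of the plasma gate, 40 counts in 1 of 282 cells of the pre-plasma gate and 0 counts in the 692 cells of the germinal centre gates, where the limit that a count of 0 allows (3 counts over the group) is 0.0649 CPM. It reached a median of 95.6 CPM over the plasma gate pools, with 3 of 19 at 0.

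Of 14 regulators of the flux 5 were tested. Hif1a fell by 3.81 ± 0.90 (edgeR adjusted p = 0.00159), with medians of 3.23 and 38.7 CPM in the plasma and germinal centre gates, and Myc by 2.26 ± 0.86 (edgeR adjusted p = 0.0419), with medians of 17.6 and 56.7 CPM. Txnip, which restrains glucose uptake, rose by 3.33 ± 1.03 (edgeR adjusted p = 0.0134), with medians of 49.9 and 3.28 CPM. In the pre-plasma gate against the germinal centre gates neither Hif1a (-0.35 ± 0.70) nor Myc (0.21 ± 0.70) passed, at edgeR adjusted p = 0.820 and 0.896. Of 7 genes of the pentose phosphate pathway 6 were tested and 2 fell in the plasma gate, Pgd (-1.99 ± 0.62) and Tkt (-1.22 ± 0.32), at edgeR adjusted p = 0.0150 and 0.00416. Over all genes 21.3% passed as lower in the plasma gate.

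Pyruvate entry and the citrate cycle, 24 genes that were all tested, gave 3 higher and 1 lower in the plasma gate, with a median of -0.07 beside -0.50 for all genes. Over all genes 34.9% passed in either direction, so calls in this list were not frequent. The pyruvate carrier subunit Mpc2 rose by 2.18 ± 0.22 (edgeR adjusted p = 1.08e-08), with medians of 797 and 174 CPM in the plasma and germinal centre gates, and malate dehydrogenase Mdh1 rose by 0.64 ± 0.10, while fumarase Fh1 fell by 1.54 ± 0.48. Of 18 hypoxia response genes outside glycolysis 7 were tested and split, the oxidoreductase Ero1l (4.75 ± 0.75) and Bnip3l (0.99 ± 0.38) higher and Ankrd37 (-6.22 ± 1.13) and Bnip3 (-3.97 ± 1.51) lower (edgeR adjusted p between 2.07e-05 and 0.0463). Within plasma cells, Eno1 rose with cycling by 1.80 ± 0.27 (edgeR adjusted p = 6.83e-05), while Bsg fell by 0.81 ± 0.10 and Txnip fell by 4.02 ± 1.13 (edgeR adjusted p = 7.48e-06 and 0.0195).

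The genes whose log2(CPM + 1) was most like that of the summed members, over 58 plate and gate pools and among 3437 genes, were the chaperone gene Hsp90ab1 (Pearson r = 0.857), the ribosomal protein gene Rps2 (0.849), Eno1 (0.843), the stress granule gene G3bp1 (0.819) and the ribosomal protein gene Rpsa (0.817). Among the members, likeness to the sum of the other 9 ran from 0.874 for Gapdh and 0.761 for Ldha to 0.166 for Pgk1 and -0.06 for Hk2. The pools share plates, gate and depth, so these values are descriptions without a test.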

How the data were processed

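Counts per gene and cell were deposited by the authors as a matrix of 16047 genes and 1367 cells, with a table of gates, phases and states; reads were processed with STAR 2.5.3a and HTSeq 0.9.1 on mm10, per the submitters' processing notes. The deposited spike-in share of each cell is a fraction made by the authors. No count of a member reached the ceiling of 1024 that a 5-base UMI allows. The highest in a cell were 829 for Pkm, 793 for Ldha and 646 for Aldoa. Counts this near the ceiling may be too low, which was not tested. Counts were summed per plate and class (at least 5 cells), and states per sample identifier, and tested with edgeR 4.0.16 (R 4.3.3; TMM, filterByExpr, quasi-likelihood test, plate as block, Benjamini-Hochberg over all genes, threshold 0.05); M against F had no covariate. Intervals are ±1.96 SE. DESeq2 1.42.0 and other settings were alternatives. Copies were sought with minimap2 2.31 against GENCODE transcripts of GRCm38. No doublet caller was run on these index-sorted single cells, and 0 per-sample columns were left unused. Scripts were tested on simulated data. Named were all members, up to 4 called genes of each other pathway list, Myc, Hif1a and the 5 genes most like the members' sum among genes of mean CPM of at least 50. Members and lists were chosen with earlier results of these data known. One called gene of a pathway list is not reported here by name.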

Additional observations from a re-analysis of the deposited data

Results flagged for a closer look

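Single plates stood apart within their gate and sample identifier for 4 members, among 60 groups of 9 or 10 plates examined. Chance would flag about 1 in 20 groups, a rate that may not hold for Hk2, with 876 counts in 65 cells. Hk2 had 66.5 CPM in the plasma gate of plate4, against 16.6 CPM on the next plate of C57BL/6F. In the germinal centre gates Hk2 had 28.5 CPM on plate3 of C57BL/6F (next 13.3) and 6.92 CPM on plate20 of C57BL/6M (next 0.896). Pfkl had 252 CPM in the germinal centre gates of plate4 (next 136), and Aldoa 150 CPM in the pre-plasma gate of plate4 (next 431). Pkm had 86.1 CPM in the plasma gate of plate2, a pool of 12 cells, against 805 CPM on the next plate. The difference between cycling and G1 cells was larger in plasma cells than in germinal centre B cells for Gapdh, by 1.07 on the log2 scale in a test of the interaction. That test did not hold gate equal.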

How the results depend on the processing

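Counts are of members called by edgeR unless another tool is named. No share of all genes passing is given for DESeq2, its size factors, larger pools or plates left out. The same holds for fits with no filter, no plate block or no immunoglobulin genes. Counts under those settings compare the settings and are not a result about the members. Pre-plasma against germinal centre gates called 1 member, but 2 with DESeq2, 0 with no filter on low counts and 0 in thinned cells. S against G1 in germinal centre B cells called 1, but 3 with DESeq2's size factors, 4 with DESeq2, 3 in thinned cells, 3 without immunoglobulin genes, 2 in pools of at least 10 cells and 0 in dark zone cells. G2/M against G1 called 0, but 2 with DESeq2 and 1 in thinned cells. In thinned cells 25.7% of all genes tested passed for pre-plasma against germinal centre gates. For S and G2/M against G1 in germinal centre B cells 10.7% and 11.6% passed there. Cycling against G1 in plasma cells called 4, but 8 with DESeq2, and the interaction 1, but 0 with no filter. Activated pre-plasma against light zone and memory-like pre-plasma against plasma called 0, but 1 each with DESeq2, and the second 0 to 1 when a sum was left out. Chosen after seeing the data were G1 cells only (0 for pre-plasma against germinal centre gates; 1 for plasma against pre-plasma gates, where 6 were called), annotated plasma cells only (1), S and G2/M cells only (0 for plasma against germinal centre gates), plasma gate cells only (0 for cycling), and leaving out plate2 or plate4, which gave 0 and 2 for pre-plasma against germinal centre gates, and plate6. Signs turned for Pkm in G1 cells (-0.0086, pre-plasma against germinal centre gates) and for Gapdh in S and G2/M cells (0.0996, plasma against germinal centre gates; 4 pools). The cause was not tested. Of the other values 1042 kept their direction and side of the threshold. Pools of at least 10 cells (plasma cycling, interaction) and pre-plasma gate cells only (plasma cycling) could not be fitted. Gates and phases were paired by plate in the main tests; with no plate block, plasma against germinal centre gates called 6 members in place of 5 and plasma against pre-plasma gates 5 in place of 6. Sparse genes such as Hk2 are limited by depth.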
